A study of Mus musculus with 31 samples.

Results

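Annexins and S100 proteins are the calcium-regulated proteins of membranes and their undersurface, and 10 of their genes were followed here through the kidneys of mice with and without polycystic disease. The members were taken by gene symbol, 4 annexins (Anxa1, Anxa2, Anxa3 and Anxa5) and 6 S100 genes (S100a4, S100a6, S100a8, S100a9, S100a10 and S100a11), of 23509 genes counted in each kidney, and all 10 were found and passed the filter on low counts. Polyadenylated RNA was sequenced in 31 kidney libraries, each taken as 1 mouse. The cystic mice were Pcy/CD1, a slowly progressing model on the outbred CD1 background, and they were injected under the skin from 5 weeks of age for 25 weeks with PBS (12 mice) or with RGLS4326 (14 mice) at 25 mg per kg. RGLS4326 is a short chemically modified oligonucleotide directed against the microRNA miR-17, and its dosing is labelled monthly. The PBS mice are labelled weekly in one label field and monthly in the treatment description, so the schedule of the vehicle is uncertain from the labels. A figure legend of the paper gives weekly PBS. The PBS and RGLS4326 mice may therefore differ in how often they were injected. The comparison mice were 5 age-matched untreated male wild-type CD1 mice, which therefore differed from the PBS mice in genotype and in not being injected. All kidneys were taken at 30 weeks of age.

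Annexins bind acidic phospholipids when calcium rises and serve membrane repair, vesicle traffic and the attachment of actin to membranes. S100 proteins are small EF-hand calcium sensors that work as dimers inside cells, and several are also released and bind receptors on other cells. Members of both families pair: S100a10 joins Anxa2 in a heterotetramer, S100a11 binds Anxa1, and S100a8 and S100a9 form calprotectin, the abundant protein of neutrophils. In kidney, annexins and S100 proteins are known from tubule epithelium, fibroblasts and leukocytes. In bulk kidney RNA, fewer cells of a type and less RNA per cell cannot be told apart.

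The sequences that bear on the treatment are those of the miR-17 family, because RGLS4326 was designed against its seed. The 4 mature mouse microRNAs below (RefSeq, GRCm38.p6) are shown with the seed, bases 2 to 8, in capitals. They share this seed and differ outside it.
mmu-miR-17-5p, chr14:115043684-115043706, plus strand: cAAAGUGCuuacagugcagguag
mmu-miR-20a-5p, chr14:115044183-115044205, plus strand: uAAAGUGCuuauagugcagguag
mmu-miR-93-5p, chr5:138165574-138165596, minus strand: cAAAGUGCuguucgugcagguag
mmu-miR-106b-5p, chr5:138165787-138165807, minus strand: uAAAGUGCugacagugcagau

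The complement of the seed, GCACTTT, was searched for in the longest annotated 3′UTR of each gene (GENCODE vM21). It was in 0 of the 10 members, whose 3′UTRs are 68 to 882 bases long, and in 2459 of 20958 protein-coding genes (11.7%). The absence of these letters says nothing of other ways in which a gene may depend on miR-17. Among the listed partners and receptors of the members, 3 genes held a match, printed here with 10 bases on each side and the match in capitals, and their measured levels follow further on. Ahnak encodes a giant scaffold bound by the Anxa2 and S100a10 complex, Trpv6 an epithelial calcium channel brought to the surface by the same complex, and Cd36 a scavenger receptor.
Ahnak, match at chr19:9019118-9019124, plus strand, exon 5 of 5: gaaatgtctgGCACTTTaatggcaaat
Trpv6, match at chr6:41620834-41620840, minus strand, exon 15 of 15: gcacaccagaGCACTTTaaagacaggc
Cd36, match at chr5:17783084-17783090, minus strand, exon 15 of 15: ataaaatcttGCACTTTtattaaaagt

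The S100 members lie close together in the genome, in separate stretches of chromosome 3. On GRCm38, S100a4 (chr3:90603771-90606045), S100a6 (chr3:90612882-90624181), S100a8 (chr3:90668978-90670035) and S100a9 (chr3:90692632-90695721, minus strand) share a stretch of 91951 bases, with 44796 bases between the end of S100a6 and the start of S100a8. S100a11 (chr3:93520488-93526287) and S100a10 (chr3:93555080-93564643) lie further along chromosome 3 in a stretch of 44156 bases. The annexins are dispersed, with Anxa5 at chr3:36448923-36475894 (minus strand), Anxa3 at chr5:96793339-96845966, Anxa2 at chr9:69453620-69491795 and Anxa1 at chr19:20373428-20390944 (minus strand). In the annotation Anxa1 and Anxa2 overlap a noncoding gene on the opposite strand, S100a4, Anxa3, Anxa2 and Anxa5 overlap another gene model on their own strand (Gm42674, Gm42603 and the microRNA genes Mir3109 and Mir7009), and S100a11 has a processed pseudogene on chromosome 12 (S100a11-ps), so reads of these members could be shared or lost. The library kit keeps strand, and the strand setting of the counting is not given in the sources used here.

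Counts assigned to genes ranged from 14892524 to 27459962 per mouse, with a median of 19961466. Levels are given as edgeR's CPM, a gene's counts divided by the library size after scaling with TMM factors, so that levels of 1 gene can be compared between mice. Fold changes are log2 values from edgeR's quasi-likelihood test, fitted to all 31 mice and 15185 genes, and p-values were adjusted by Benjamini-Hochberg over these genes. A gene was called when its adjusted p was under 0.05 and its absolute log2 fold change over 0.5, the thresholds the study states. Each ± after a log2 fold change is a standard error and each ± after a CPM is an SD. The treated library of RGLS4326 mouse 9 stood apart. Of 6442 genes called between PBS and wild type, 56.4% lay within the wild-type range in that mouse, against 3.65% to 21.3% in the other 25 Pcy/CD1 mice, and results that rest on it are given with and without it. Read in mouse order, the number in the deposited library name fails to rise at 2 points in each group (PBS mice are numbered 1 to 4 in each of the 3 runs), and the mice were divided there into 3 library sets (4, 4 and 4 PBS, 4, 5 and 5 RGLS4326 and 2, 2 and 1 wild-type mice). What a set stands for is not labelled.

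In cystic kidneys of PBS mice, 8 of the 10 members rose above wild type and the genes of calprotectin did not pass the test. In the fit to all mice the rises were 5.53-fold for S100a6, 4.52-fold for Anxa3, 4.11-fold for S100a11, 3.95-fold for Anxa2, 3.56-fold for Anxa1 and 3.40-fold for S100a4, and smaller for Anxa5 (1.72-fold) and S100a10 (1.63-fold). The order of the first 6 is not firm, since their standard errors overlap and within library sets 1, 2 and 3 S100a6 stood at 2.32, 2.99 and 1.95 and Anxa3 at 2.48, 1.91 and 2.10 on the log2 scale. All 12 PBS mice lay above all 5 wild-type mice for each of these 8 genes. The share of all genes tested that separated in this way was not counted. Such separation was not particular to the members, since Ahnak and Trpv6 showed it too, and Cd36 did in the other direction. Calls were common in this comparison, at 42.4% of all genes tested. Genes called higher in PBS mice made up 24.6% of those tested and genes called lower 17.8%, while 74.3% passed the adjusted p alone, 37.7% higher and 36.6% lower. The median log2 fold change over the 10 members was 1.80, beside 0.01 over all genes tested. All 8 also passed the adjusted p in each of the 3 library sets taken alone (set 3 holds 1 wild-type mouse, which the fit takes to vary like the other mice), and in every fit that left out 1 of the 31 mice all 8 were called.

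**Figure D1:**
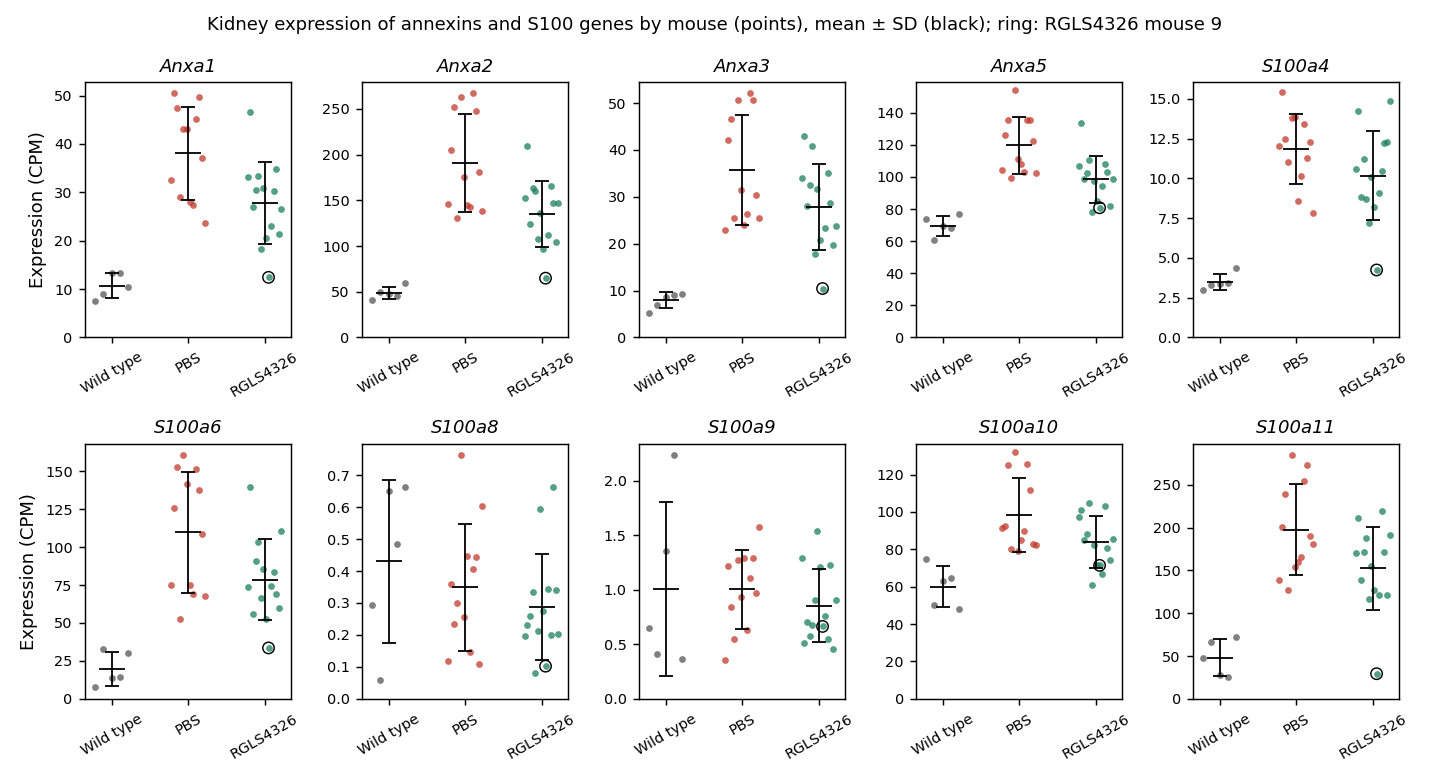
Expression of the 10 members in each kidney (vertical axes, CPM on a linear scale from 0, each gene with its own scale) for 5 wild-type, 12 PBS and 14 RGLS4326 mice, with the mean and SD in black and RGLS4326 mouse 9 ringed. In 8 panels every PBS mouse lies above every wild-type mouse, and in the S100a8 and S100a9 panels the 3 groups overlap at levels near or under 2 CPM.

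Anxa2 and S100a10 are the members of the best-known annexin complex, which binds the membrane skeleton and captures plasminogen at the cell surface. Anxa2 read 40.8, 49.8, 47.4, 45.1 and 59.2 CPM in wild-type mice 1 to 5. In PBS mice it ran from 130 in mouse 4 through a median of 178 to 268 CPM in mouse 9. In RGLS4326 mice it ran from 64.8 in mouse 9 through 142 to 209 CPM in mouse 2. The PBS mice did not overlap the wild-type mice, and 6 of 14 treated mice lay below the lowest PBS mouse while none fell into the wild-type range. The rise in disease was 1.98 ± 0.22 (adjusted p = 1.24e-08, edgeR). S100a10 read 74.8, 50.2, 62.9, 64.7 and 48.0 CPM in wild-type mice, 79.2 to 132 (median 90.7) in PBS mice and 61.1 to 105 (median 83.8) in RGLS4326 mice. Its rise was 0.71 ± 0.14 (adjusted p = 3.85e-05), smaller than that of its partner, and 5 of 14 treated mice lay within the wild-type range. Within a group, mice with more Anxa2 had more S100a10 on the log2(CPM + 1) scale. Pearson's r was 0.876 in the 12 PBS mice (Spearman's rho 0.818, permutation p = 0.00042 and 0.00198, adjusted 0.00126 and 0.00524) and 0.772 in the 14 RGLS4326 mice (rho 0.877, permutation p = 0.00083 and 0.00016, adjusted 0.00166 and 0.00096). Without the 2 mice farthest from the group's median of Anxa2, r was 0.798 and 0.848. The permutation tests were two-sided with 100000 resamples, and p-values were adjusted over 6 relations, 3 pairs in 2 groups. Other genes vary with Anxa2 over the same mice as closely, as described further on.

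Anxa1 is the glucocorticoid-inducible annexin whose released form acts on formyl peptide receptors, and S100a11 binds its N terminus. Anxa1 read 7.61, 8.91, 13.3, 13.3 and 10.5 CPM in wild-type mice 1 to 5. In PBS mice it ran from 23.6 to 50.6 CPM (median 40.1) and in RGLS4326 mice from 12.4 in mouse 9 to 46.6 in mouse 2 (median 28.6). All PBS mice and 13 of 14 treated mice were above the wild-type range, and 5 treated mice were below the lowest PBS mouse. The rise in disease was 1.83 ± 0.23 (adjusted p = 8.73e-08). S100a11 read 48.1, 66.4, 28.3, 25.1 and 72.4 CPM in wild-type mice, and wild-type mice 3 and 4, both of library set 2, were low in it. It ran from 127 to 285 CPM (median 186) in PBS mice and from 29.3 in mouse 9 to 219 (median 163) in RGLS4326 mice. Its rise was 2.04 ± 0.31 (adjusted p = 9.57e-07). Per kilobase of exon, S100a11 had the highest mean of the members in every group, at 94.1 ± 42.0 CPM per kb in wild-type, 387 ± 104 in PBS and 298 ± 95.5 in RGLS4326 mice. In wild-type mice S100a10 lay within the SD of S100a11, at 74.9 ± 13.8 CPM per kb. Anxa1 and S100a11 also varied together, with r = 0.862 (rho 0.741) in RGLS4326 mice (permutation p = 2e-05 and 0.00357, adjusted 0.00012 and 0.00535), 0.829 without mouse 9 and 0.805 without the 2 mice farthest from the median. In PBS mice r was 0.658 (permutation p = 0.0231, adjusted 0.0277), 0.757 without the 2 farthest mice, whereas the rank correlation of 0.573 missed the threshold (permutation p = 0.0559, adjusted 0.067). The same mice were high or low for most members, as described further on. Members that are not partners were not paired for comparison.

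**Figure D2:**
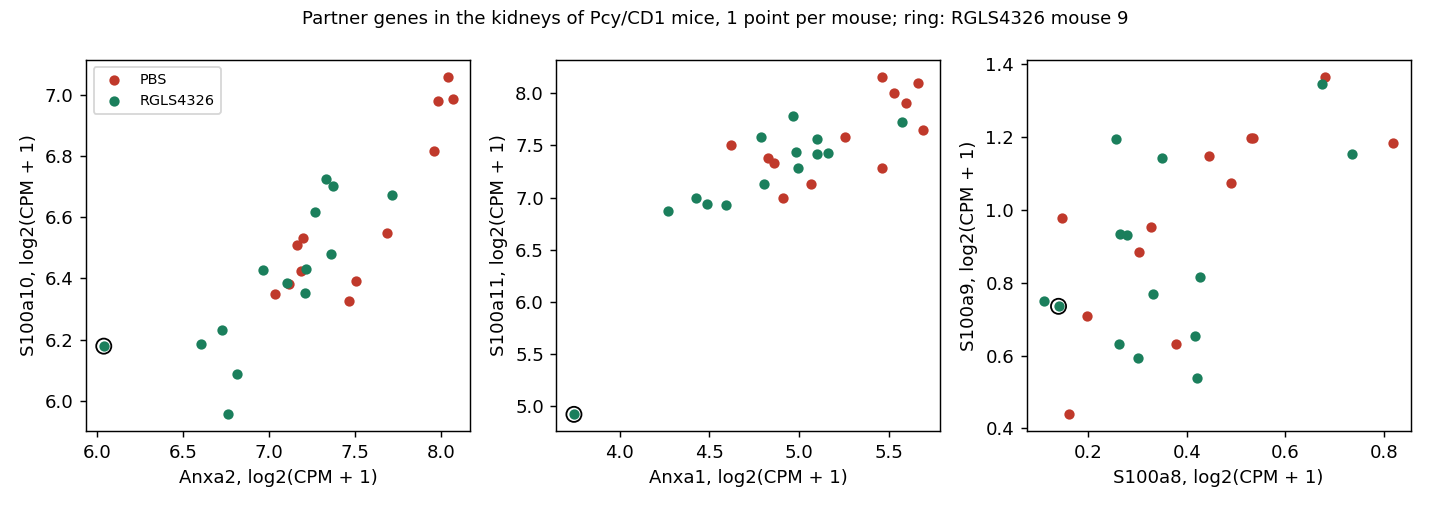
The 3 partner pairs on log2(CPM + 1) axes, 1 point per Pcy/CD1 mouse (12 PBS in red, 14 RGLS4326 in green, mouse 9 ringed). Anxa2 rises with S100a10 and Anxa1 with S100a11 in both groups, while the S100a8 and S100a9 points lie at low levels and scatter more in treated mice.

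Anxa3 and Anxa5 differed in how far they rose. Anxa3, an annexin first known as an inhibitor of phospholipase A2, read 5.31, 7.01, 8.70, 9.14 and 9.33 CPM in wild-type mice. It ran from 22.9 to 52.1 (median 30.9) in PBS mice and from 10.4 in mouse 9 to 43.1 (median 28.4) in RGLS4326 mice, and no mouse of either group fell into the wild-type range. Its rise was 2.18 ± 0.28 (adjusted p = 8.71e-08), and per kilobase it was the least abundant of the 4 annexins at 13.6 ± 4.47 CPM per kb in PBS mice. Anxa5, the phosphatidylserine-binding protein used to mark dying cells, read 74.1, 60.5, 69.2, 68.0 and 76.7 CPM in wild-type mice, 99.7 to 154 (median 117) in PBS mice and 78.0 to 133 (median 98.5) in RGLS4326 mice. Its groups were the tightest of all members, with a coefficient of variation of 14.8% in both Pcy/CD1 groups and 8.93% in wild type, and its rise of 0.78 ± 0.11 passed the test (adjusted p = 2.47e-07).

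S100a4 and S100a6, which lie close together on chromosome 3, both rose. S100a4 is known as fibroblast-specific protein and is also made by macrophages and other leukocytes. It read 3.01, 3.33, 3.37, 3.39 and 4.34 CPM in wild-type mice, 7.84 to 15.4 (median 12.2) in PBS mice and 4.24 in mouse 9 to 14.9 (median 10.3) in RGLS4326 mice, a rise in disease of 1.76 ± 0.21 (adjusted p = 2.41e-08). S100a6, or calcyclin, marks proliferating and injured epithelium and stroma. It was uneven among wild-type mice, at 7.61, 33.0, 13.8, 14.5 and 30.5 CPM, and ran from 52.5 to 161 (median 117) in PBS mice and from 33.5 in mouse 9 to 139 (median 74.2) in RGLS4326 mice. The rise of S100a6 was 2.47 ± 0.34 (adjusted p = 2.3e-07). In PBS mice it was second only to S100a11 per kilobase, at 136 ± 49.2 CPM per kb, with Anxa2 at 132 ± 37.0 and S100a10 at 122 ± 24.7. These 3 levels lie within each other's SD. In wild-type mice S100a6 ranked number 5 of the 10, at 24.6 ± 13.8 CPM per kb.

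S100a8 and S100a9, in the same stretch of chromosome 3, stood at very low levels in all groups. S100a8 was covered by 5, 1, 11, 8 and 11 counts in wild-type mice 1 to 5, by 2 to 18 counts in PBS mice and by 2 to 13 counts in RGLS4326 mice. Its mean was 0.430 ± 0.256 CPM in wild-type, 0.349 ± 0.199 in PBS and 0.288 ± 0.165 in RGLS4326 mice. S100a9 was covered by 11, 7, 23, 37 and 6 counts in wild-type mice, 6 to 34 in PBS and 8 to 33 in RGLS4326 mice, with means of 1.005 ± 0.797, 1.004 ± 0.359 and 0.855 ± 0.337 CPM. Neither passed the test between PBS and wild type, at −0.29 ± 0.42 for S100a8 (adjusted p = 0.546) and 0.01 ± 0.34 for S100a9 (adjusted p = 0.981). With these standard errors a modest change was not detectable at this depth. In library set 3, whose only wild-type mouse had 6 counts, S100a9 was higher in PBS mice (1.77, adjusted p = 0.0447), and in library set 2 its difference was −0.78 (adjusted p = 0.13). The calprotectin genes followed each other in PBS mice (r = 0.757, rho 0.804, permutation p = 0.00417 and 0.00262, adjusted 0.00625 and 0.00524), with r = 0.723 when the 2 farthest mice were left out. In RGLS4326 mice the relation did not pass (r = 0.476, rho 0.218, permutation p = 0.0841 and 0.454, also after adjustment) and r turned to −0.124 without the 2 farthest mice, so that it rested on those mice.

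The other neutrophil markers were low as well. Of 14 markers listed, 13 were in the files and 4 had enough counts to be tested. None was at 0 in all 31 mice, but Camp, Ngp, Mpo and Elane, which encode granule proteins, were at 0 counts in 21, 23, 21 and 25 mice and never exceeded 0.696 CPM. Of the 4 tested, 2 rose in PBS mice, Csf3r, the receptor for granulocyte colony-stimulating factor (means of 1.72 CPM in wild-type and 5.26 in PBS mice, 1.61 ± 0.28, adjusted p = 6.79e-06), and the protease gene Prtn3 (means of 0.0718 and 0.897 CPM, 3.55 ± 0.63, adjusted p = 9.29e-06). The summed level of the 13 genes ran from 2.65 to 5.32 CPM in wild-type, 5.21 to 10.8 in PBS and 2.97 to 11.6 in RGLS4326 mice.

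Markers of injured tubule, fibroblasts and macrophages rose beside the 8 members, and those of proximal tubule fell. All 10 injured-tubule markers were called higher in PBS mice, led by Lcn2 (6.68 ± 0.85), Krt20 (5.14 ± 0.64) and Sox9 (3.53 ± 0.63), and their summed level was 524 to 1220 CPM in wild-type, 3438 to 8934 in PBS and 1071 to 7304 in RGLS4326 mice. Of 9 fibroblast markers 7 rose and 2 did not pass, with Col1a1 (3.37 ± 0.36), Col3a1 (3.21 ± 0.33) and Col1a2 (2.55 ± 0.26) in front, and their sum was 167 to 235, 555 to 1187 and 269 to 1224 CPM. Of 10 macrophage and monocyte markers in the files 9 rose and Ly6c2 fell, led by C1qa (3.11 ± 0.37), C1qc (3.05 ± 0.36) and C1qb (3.02 ± 0.38), with sums of 189 to 228, 525 to 882 and 202 to 1076 CPM. No marker of these 3 lists was at 0. All 9 proximal tubule markers fell, among them Slc13a3 (−1.86 ± 0.21), Slc5a12 (−1.61 ± 0.26) and Lrp2 (−1.34 ± 0.20). Of 9 markers of other segments and the glomerulus 4 rose and 2 fell, and the 3 largest rises were of collecting duct genes, Aqp2 (2.30 ± 0.25), Fxyd4 (1.91 ± 0.20) and Hsd11b2 (1.55 ± 0.15). The part of each cell type in the members' rise was not tested.

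**Figure D3:**
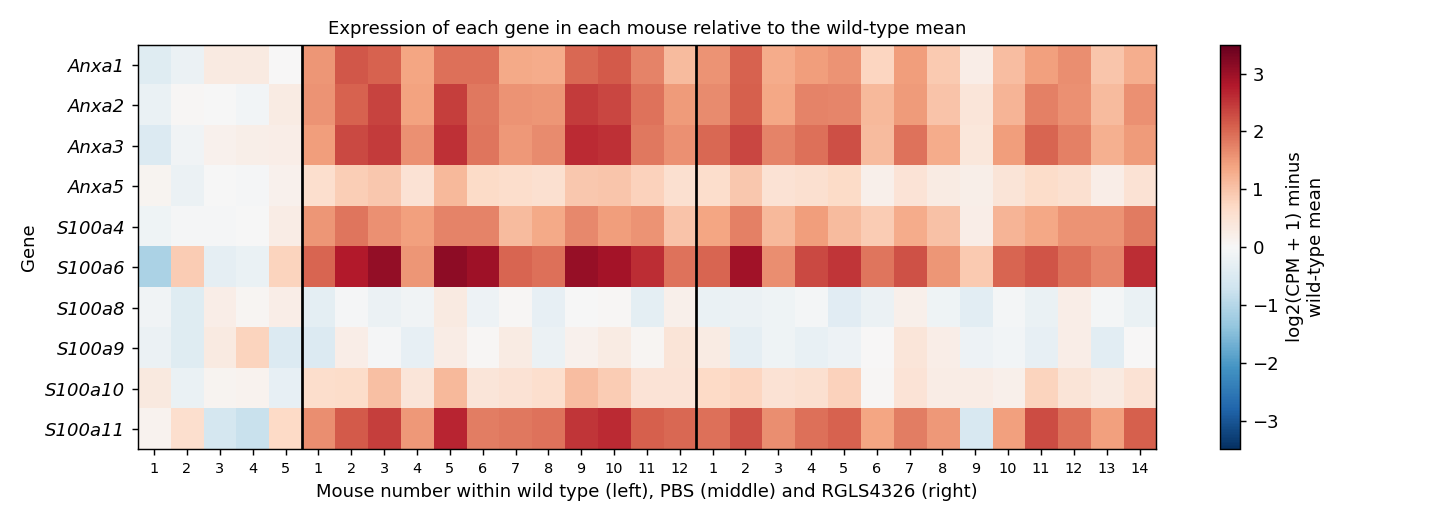
Each member (rows) in each mouse (columns, mouse numbers within the wild-type, PBS and RGLS4326 groups from left to right), as log2(CPM + 1) minus the wild-type mean of that gene. Red columns are shared by 8 rows in PBS mice, the S100a8 and S100a9 rows stay pale, and RGLS4326 mouse 9 is the palest treated column.

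The comparison of RGLS4326 with PBS asks whether these genes differed between drug-injected and vehicle-injected cystic kidneys, and few members passed. The libraries used here hold no control oligonucleotide. Inhibition of miR-17, other effects of an oligonucleotide and the injection schedule therefore cannot be told apart. All 10 had a lower fitted level in RGLS4326 than in PBS mice, by 0.22 to 0.50 on the log2 scale, with a median of −0.33 beside 0.00 over all genes tested. An adjusted p under 0.05 was reached by 3 members, Anxa1, Anxa2 and Anxa5, where 15.8% of all genes tested passed, 9.15% higher and 6.66% lower. With the size threshold 1 member was called, Anxa2, where 2.15% of all genes were called, 0.935% higher and 1.22% lower. The other 7 members, S100a4, S100a6, S100a8, S100a9, S100a10, S100a11 and Anxa3, did not pass, with adjusted p-values of 0.0913 to 0.502. All 3 members that passed are annexins. Whether annexins and S100 genes differ in their response was not tested.

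Anxa2 fell by 0.50 ± 0.14 (191 ± 53.5 CPM in PBS and 135 ± 36.4 in RGLS4326 mice, adjusted p = 0.0259). Its fitted value of −0.5004 lies at the size threshold, and DESeq2 and median-of-ratios size factors left it just outside. Anxa5 fell by 0.28 ± 0.08 (120 ± 17.7 and 98.5 ± 14.6 CPM, adjusted p = 0.0209), with 8 of 14 treated mice below the lowest PBS mouse. Anxa1 fell by 0.45 ± 0.15 (38.1 ± 9.60 and 27.8 ± 8.47 CPM, adjusted p = 0.0423), and its adjusted p was 0.0522 with no filter on low counts and 0.0566 when the fit held the compared groups alone. The groups overlapped for all 3, and RGLS4326 mouse 2 was above the PBS median for Anxa1, Anxa2 and Anxa5 and was the highest treated mouse for each. Without mouse 9 the decrease was −0.44 for Anxa2 (adjusted p = 0.0359), −0.26 for Anxa5 (adjusted p = 0.0348) and −0.39 for Anxa1, which no longer passed (adjusted p = 0.0638), and no member was called by both thresholds. Anxa2 lost its call by both thresholds in 16 of the 31 fits without 1 mouse, including all 5 without a wild-type mouse, and its adjusted p in 4 of them, those without PBS mouse 3, 5, 9 or 10 (highest 0.0588). Anxa1 lost it in 13 of 31 such fits, those without PBS mouse 2, 3, 5, 6, 9, 10 or 11 or RGLS4326 mouse 3, 6, 8, 9, 10 or 13 (highest 0.0881). Anxa5 lost it in none (highest 0.0478).

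Taken within library sets, the decreases of these annexins were smaller in set 1 than in sets 2 and 3. Anxa2 differed by −0.18, −0.68 and −0.62 in sets 1, 2 and 3 (adjusted p = 1, 0.237 and 0.188). Anxa1 differed by −0.22, −0.62 and −0.51 (adjusted p = 1, 0.248 and 0.222) and Anxa5 by −0.08, −0.40 and −0.35 (adjusted p = 1, 0.237 and 0.181). The treatment calls thus did not hold within a set, where 0 genes of the genome passed in edgeR's test, although 280, 2981 and 3045 genes had an unadjusted p under 0.05. Whether the sets differ from each other was not tested, and mouse 9 belongs to set 2.

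No S100 member passed. The differences from PBS were −0.48 ± 0.21 for S100a6 (110 ± 39.8 and 78.5 ± 26.9 CPM, adjusted p = 0.0977), −0.37 ± 0.20 for S100a11 (198 ± 53.4 and 152 ± 48.8 CPM, adjusted p = 0.169), −0.23 ± 0.10 for S100a10 (98.2 ± 19.8 and 83.8 ± 13.9 CPM, adjusted p = 0.0913) and −0.22 ± 0.13 for S100a4 (11.9 ± 2.23 and 10.2 ± 2.80 CPM, adjusted p = 0.215). For Anxa3 it was −0.36 ± 0.17 (adjusted p = 0.135). S100a6 passed when PBS mouse 4 or RGLS4326 mouse 2 was left out (−0.55 and −0.57, adjusted p = 0.0494 and 0.0418). S100a8 and S100a9 differed by −0.30 ± 0.32 and −0.24 ± 0.25 (adjusted p = 0.502 and 0.49). No injured-tubule, fibroblast or macrophage marker passed in this comparison. Of the injured-tubule markers 9 of 10 had a lower fitted level in RGLS4326 mice, with a median of −0.50 beside −0.33 for the members, and so had 8 of 9 fibroblast (median −0.23) and 7 of 10 macrophage markers (median −0.11). Their part in the members' differences was not tested. Of the proximal tubule markers all 9 had a higher fitted level (median 0.35), and 3 of 9 passed, Slc13a3 (0.54, adjusted p = 0.0352), Slc22a6 (0.35, adjusted p = 0.0272) and Cubn (0.38, adjusted p = 0.0421). Without mouse 9, Slc13a3 and Cubn did not pass (0.38 and 0.36, adjusted p = 0.0629 and 0.0684) and Slc22a6 did (0.29, adjusted p = 0.0457). The collecting duct markers Aqp2 and Hsd11b2 fell by 0.56 and 0.32 (adjusted p = 0.0265 and 0.0352), and the neutrophil markers Ltf and Prtn3 differed by −1.102 and −0.96 (adjusted p = 0.0307 and 0.0336).

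**Figure D4:**
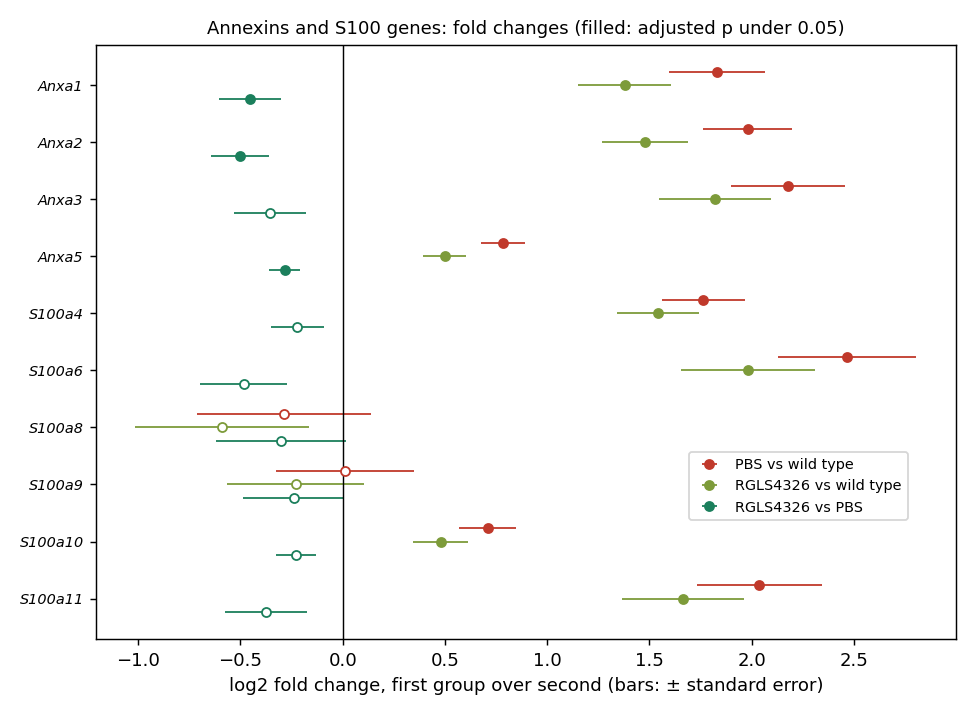
Log2 fold change of each member (points, bars show the standard error) in PBS over wild type, RGLS4326 over wild type and RGLS4326 over PBS, filled where the adjusted p was under 0.05. Fold changes over wild type are near 0.5 to 2.5 for 8 genes in both Pcy/CD1 groups, and those of RGLS4326 over PBS lie between −0.50 and −0.22.

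Most members remained above wild type in treated kidneys. Against wild type 8 members passed the adjusted p in RGLS4326 mice and 6 passed both thresholds, where 64.9% of all genes passed the adjusted p (32.5% higher and 32.4% lower), 31.5% were called and 20.3% were called higher. In the fit to all mice these 6 were S100a6 (1.98 ± 0.33, 3.95-fold), Anxa3 (1.82 ± 0.27, 3.53-fold), S100a11 (1.66 ± 0.30, 3.17-fold), S100a4 (1.54 ± 0.20), Anxa2 (1.48 ± 0.21) and Anxa1 (1.38 ± 0.23). Anxa5 (0.50 ± 0.10) and S100a10 (0.48 ± 0.13) lay just under the size threshold. S100a8 and S100a9 did not pass (−0.59 ± 0.43 and −0.23 ± 0.34, adjusted p = 0.225 and 0.559). Without mouse 9, 7 members passed both thresholds, Anxa5 joining the 6 at 0.52. Within library set 1 all 8 passed both thresholds and within set 3 these 6 did, but within set 2, which holds mouse 9, only S100a6 passed (2.29, adjusted p = 0.0415). There Anxa1 stood at 0.82 (adjusted p = 0.144), Anxa2 at 1.30 (0.0605), Anxa3 at 1.47 (0.0891), S100a4 at 1.20 (0.0663) and S100a11 at 2.22 (0.0605). Calls were fewer in set 2 over the whole genome as well, 372 genes against 4789 in all mice. The part of mouse 9 in this was not tested. This comparison shares its treated mice with RGLS4326 against PBS and its wild-type mice with PBS against wild type.

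The same mice were high or low for most members. Over the 8 members that rose, PBS mouse 5 was among the 3 highest PBS mice for 7, PBS mice 3 and 9 for 5 each, and PBS mice 4 and 12 were among the 3 lowest for 6 each. In the RGLS4326 group mouse 2 was among the 3 highest for all 8 and mouse 9 among the 3 lowest for all 8. Mouse 9 lay within the wild-type range for 6 of the 10 members. For Anxa1, S100a4 and S100a11 it was the only treated mouse there, whereas 5 of 14 treated mice were in that range for S100a10, 13 for S100a8 and 14 for S100a9. In the same mouse the summed injured-tubule markers were 1071 CPM, the summed fibroblast markers 269 CPM, the summed macrophage markers 202 CPM and the summed proximal tubule markers 15211 CPM. Each was the value nearest to wild type among the 14 treated mice.

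The pattern over the 26 Pcy/CD1 mice was shared with other genes to a degree that differed by member. Among 11568 genes averaging 5 CPM or more, those most like Anxa2 by Spearman's rho were Igfbp2 (0.977), which binds insulin-like growth factors, Ltbp3 (0.971), a latent TGF-β binding protein, and Pld2 (0.971), a phospholipase D. Anxa3 was followed by Tes (0.969), Sytl2 (0.966) and Foxj1 (0.966), the transcription factor of motile cilia. S100a6 was followed by Wnt4 (0.948), Tgfa (0.933) and the duct keratin Krt19 (0.917). For S100a8 the highest were Brat1 (0.632), Rbm18 (0.592) and Gadd45g (0.561), with 2 to 18 counts of S100a8 per mouse behind them. These are descriptions over mice of 2 groups that differ in level and share a disease scale, with no test.

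Among the other annexins, 7 of 8 had enough counts to be tested, and in PBS mice 4 rose and 2 fell by the adjusted p. Anxa8 rose by 2.75 ± 0.54 (adjusted p = 4.67e-05), from 0 to 0.963 CPM in wild-type to 0.598 to 4.27 CPM in PBS mice. Of the 12 PBS mice 2 lay within the wild-type range, and in library set 3 the rise did not pass (0.99, adjusted p = 0.0528). Anxa9, which lacks the typical calcium-binding residues, rose by 1.68 ± 0.24 (adjusted p = 4.21e-07). Anxa13, the annexin of intestinal and kidney epithelium, went the other way, from 23.2 to 30.6 CPM in wild-type to 3.29 to 8.13 CPM in PBS mice (−2.21 ± 0.23, adjusted p = 6.62e-09). It was the only other annexin past both thresholds with RGLS4326, higher by 0.57 ± 0.19 (4.91 to 19.7 CPM, adjusted p = 0.0418), and mouse 9 had its highest treated value. Without mouse 9 it did not pass (0.40, adjusted p = 0.0799), nor without several other mice (PBS 2, 3, 5, 6, 9, 10 or 11 and RGLS4326 6, 8, 10 or 13), with library set as a covariate (adjusted p = 0.0558), with no filter (0.052) or with the compared groups alone (0.0625). Within library sets 1, 2 and 3 it differed by −0.13, 1.03 and 0.54 (adjusted p = 1, 0.237 and 0.22). Anxa4, Anxa6 and Anxa11 fell with RGLS4326 by the adjusted p alone.

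Of the 11 other S100 genes listed 7 were tested, and in PBS mice S100a16 (0.87 ± 0.12, adjusted p = 1.67e-07) and S100a13 (0.85 ± 0.14, adjusted p = 5.15e-06) rose and S100pbp, which encodes an S100-binding protein, fell (−0.29 ± 0.12, adjusted p = 0.0389). With RGLS4326 2 fell by the adjusted p, S100a16 (−0.27 ± 0.08, adjusted p = 0.0316) and S100a14, which alone of the 7 passed both thresholds. S100a16 did not pass in 9 of the 31 fits without 1 mouse, those without PBS mouse 3, 5, 9 or 10 or RGLS4326 mouse 6, 8, 9, 10 or 13 (highest adjusted p 0.0711), nor within any library set. S100a14 ran from 1.99 to 10.1 CPM (median 4.41) in PBS and from 0.767 to 5.83 (median 2.21) in RGLS4326 mice, a decrease of −0.94 ± 0.32 (adjusted p = 0.0456) that did not pass without mouse 9 (−0.86, adjusted p = 0.0686) or without PBS mouse 2, 3, 5, 9, 10 or 11 or RGLS4326 mouse 3, 6, 7, 8, 10, 12 or 13. Its adjusted p was 0.0532 with library set as a covariate and 0.0558 with no filter, and within sets 1, 2 and 3 it differed by −0.29, −1.44 and −1.07 (adjusted p = 1, 0.237 and 0.179). Its wild-type mice ranged from 0.236 to 5.81 CPM, and 13 of 14 treated mice lay within that range. Its difference between PBS and wild type did not pass in all mice (0.91 ± 0.46, adjusted p = 0.075) and depended on wild-type mice 3 and 4. It passed without either of them (1.37 and 1.38, adjusted p = 0.0178 and 0.0165), with the pair taken as 1 mouse (1.26, adjusted p = 0.0241) and within library sets 1 and 3 (2.58 and 2.98, adjusted p = 0.0171 and 0.00967), and it was −0.0025 in set 2, to which both belong. S100g, the calcium buffer of the distal tubule and the most abundant of these genes by CPM, did not pass in any comparison.

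**Figure D5:**
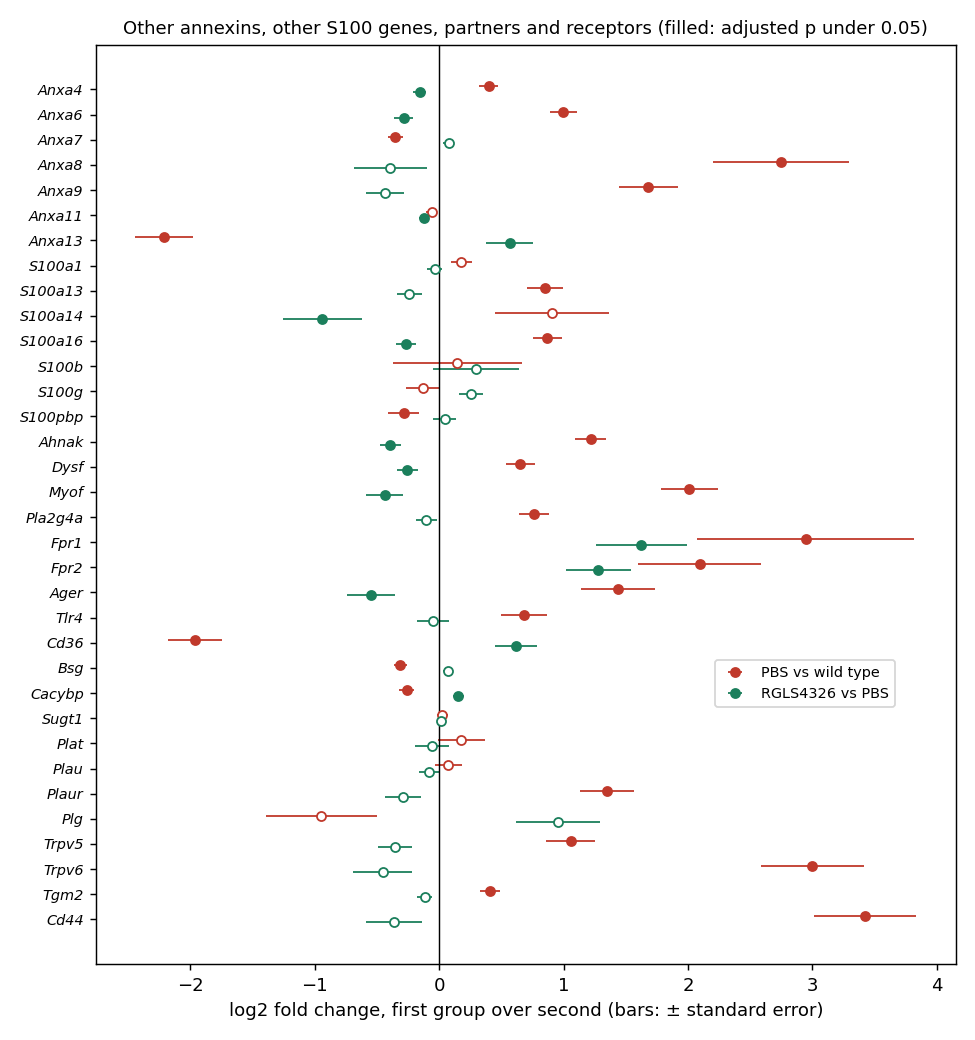
Log2 fold changes (points, bars show the standard error) of the other annexins, the other S100 genes and the partners and receptors tested, in PBS over wild type and RGLS4326 over PBS, filled where the adjusted p was under 0.05. Cd44, Trpv6 and Fpr1 have the largest rises among partners and receptors in disease, and Fpr1 and Fpr2 are the only genes far to the right in both comparisons.

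Of 20 partners and receptors tested 13 rose and 3 fell in PBS mice. The largest rises were those of Cd44, the hyaluronan receptor of injured epithelium and leukocytes (3.42 ± 0.41, 10.7-fold, adjusted p = 3.6e-08), of Trpv6 (2.998 ± 0.41, 7.99-fold, adjusted p = 2.61e-07) and of Fpr1 (2.95 ± 0.87, adjusted p = 0.00328), which had 0 to 3 counts in wild-type mice, so that the size of its rise is poorly set. Fpr1 passed in no library set taken alone (adjusted p = 0.0974, 0.101 and 0.155). Cd36 fell by 1.96 ± 0.22. Ahnak rose by 1.22 ± 0.13, as did the membrane-repair gene Myof (2.01 ± 0.23) and Dysf (0.65 ± 0.12). Both plasminogen activator genes, Plat and Plau, did not pass (adjusted p = 0.39 and 0.558).

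With RGLS4326 8 of the 20 passed the adjusted p, 4 higher and 4 lower, and 4 were past both thresholds. The formyl peptide receptors, which bind Anxa1 and its fragments on leukocytes, were higher in RGLS4326 than in PBS mice. Fpr2 ran from 0.415 to 2.03 CPM (median 1.23) in PBS and from 0.307 in mouse 9 to 6.81 in mouse 2 (median 2.69) in RGLS4326 mice, higher by 1.28 ± 0.26 (adjusted p = 0.00621). Fpr1 ran from 0.0464 to 1.04 CPM (median 0.519) and from 0.0511 in mouse 9 to 4.63 in mouse 2 (median 1.28), higher by 1.63 ± 0.37 (adjusted p = 0.0103). For both genes 13 of 14 treated mice were above the PBS median, the exception being mouse 9. Without mouse 9 the rises were 1.37 (adjusted p = 0.00082) and 1.73 (adjusted p = 0.00392), and within the library sets they were 1.46, 0.97 and 1.37 for Fpr2 and 1.99, 1.45 and 1.39 for Fpr1, none with an adjusted p under 0.05.

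Ager, the receptor for advanced glycation end products that binds S100 proteins, fell by 0.55 ± 0.19 with RGLS4326 (adjusted p = 0.0493), from 2.39 to 7.51 CPM in PBS to 1.13 to 4.45 in RGLS4326 mice. It lost its call without mouse 9 (−0.48, adjusted p = 0.0744) and in 19 of the 31 fits without 1 mouse, among them each without a wild-type mouse. Its adjusted p was 0.0551 with library set as a covariate, 0.0618 with no filter, 0.0657 with the compared groups alone and 0.053 with wild-type mice 3 and 4 as 1, and within sets it differed by −0.20, −0.85 and −0.57 (adjusted p = 1, 0.249 and 0.336). Tlr4, a receptor that binds S100a8 and S100a9, did not pass (−0.05 ± 0.13, adjusted p = 0.787). Of the 3 genes with a miR-17 seed match shown above, Cd36 rose with RGLS4326 (0.62 ± 0.17, 103 to 378 CPM in PBS and 195 to 634 in RGLS4326 mice, adjusted p = 0.0233), Ahnak fell (−0.39 ± 0.09, adjusted p = 0.00989) and Trpv6 did not pass (−0.45 ± 0.24, adjusted p = 0.163). Cd36 lost its call without mouse 9, where its difference of 0.4998 (adjusted p = 0.0407) lies just under the size threshold, and without PBS mouse 10 (adjusted p = 0.0516), and within library sets it differed by 0.21, 0.87 and 0.71 (adjusted p = 1, 0.237 and 0.199).

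The promoters of the members were searched on both strands for short motifs in the 300 bases from 250 before to 50 after the RefSeq start (GRCm38.p6), and 8 members had an entry. The AP-1 letters TGANTCA were in the promoters of S100a11 and Anxa2 and in 7.81% of 32851 promoters. The promoters of Anxa1, Anxa5, S100a4 and S100a6, which also rose in cystic kidney, held no such letters. The windows of S100a11 and Anxa2 are shown with the match in capitals.
S100a11, chr3:93520350-93520376, plus strand: agagacctgtTGAGTCAcagggactac
S100a11, chr3:93520448-93520474, plus strand: gggcacagccTGAGTCAggctgagggg
Anxa2, chr9:69453578-69453604, plus strand: ccaagttggaTGAGTCAcccagcaggg
The TATA letters TATAAA were in 5 of the 8, S100a4, S100a8, S100a9, Anxa2 and Anxa1, against 13.6% of all promoters. They stood 31 bases before the start in S100a4 and 30 bases before it in S100a8. Of these genes in the same stretch of chromosome 3, the first rose in disease and the second did not pass.
S100a4, chr3:90603729-90603754, plus strand: cctggcagggTATAAAtaggtcagat
S100a8, chr3:90669031-90669056, plus strand: agctttcctcTATAAAagcagctgac
The GC box letters GGGCGG were in 3 of the 8 (35.7% of all promoters), the TEAD letters GGAATG in 1, Anxa1 (14.7%), and the NF-κB motif in 0 (0.411%). A match is a run of letters and no evidence of binding.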

How the data were processed

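Kidney RNA of 31 mice was prepared with a stranded mRNA kit. The authors trimmed reads with Trim Galore, mapped them with STAR to GRCm38 and deposited raw HTSeq 0.6.1 counts per gene and mouse, with no normalization. Tally lines that name no gene stayed out (no feature 8.39% to 10.1%, ambiguous 0.305% to 0.411%, not unique 17.8% to 21.2%), and multigene copies can lose reads among the last. The annotation used for counting is not given in the sources used here. The labels number the libraries within each group and give 5 wild-type mice, and each library was taken as a separate mouse. For the RNA sequencing the study's text describes fewer mice, as many in each group as library set 1 holds. Its methods describe an animal study with Pcy/CD1 groups larger than those sequenced here and with 5 untreated wild-type mice. Were libraries of different sets from the same mice, the p-values over all libraries would be too small. No pair of libraries of a group agreed within sampling noise.

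From the counts, genes were filtered with filterByExpr (15185 of 23509 kept), scaled by TMM and fitted with 1 coefficient per group in edgeR 4.0.16 (R 4.3.3). Each standard error was taken from the F statistic, as the size of the log2 fold change divided by its square root, and is approximate. Members and lists were chosen with earlier results of these data known. Named genes are all members, the listed family and partner genes past both thresholds with RGLS4326, the 3 largest calls of each list in PBS against wild type and the 3 genes most like 4 members. Ahnak, Myof, Dysf, Plat, Plau, Tlr4, S100g, S100pbp, Anxa4, Anxa6, Anxa11, Camp, Ngp, Mpo, Elane, Ly6c2, Slc22a6 and Cubn were named after their values were seen. The same holds for Ltf. Python 3.11.15 and DESeq2 1.42.0 served for the other steps, and the test was checked on simulated counts. Alternatives were DESeq2, median-of-ratios size factors, no filter, the compared groups alone, library set, replicate block, wild-type mice 3 and 4 as 1, and leaving out each mouse. Wild-type mice 3 and 4 were alike (chi-square per gene 2.84, next wild-type pair 17.1), which is more than sampling noise, and were counted separately. Precision for S100a8 and S100a9 is limited by few counts and by the spread between mice, and the part of each was not tested.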

Additional observations from a re-analysis of the deposited data

Results flagged for a closer look

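In the 5 wild-type mice, 44 member, family and partner genes were checked for a mouse far from the others, by the gap to its nearest neighbour over the group's range (critical value 0.71), and 5 were found. Chance marks about 1 in 20 groups. The share was 0.712 for S100a4, where wild-type mouse 5 read 4.34 CPM and the other 4 read 3.01 to 3.39 CPM. Among other genes it was 0.801 for Anxa13 (highest 30.6 CPM, median 24.2), 0.724 for Ahnak (lowest 97.4, median 107), 0.981 for Myof (lowest 16.7, median 28.2) and 0.899 for Plg (highest 9.70, median 2.60).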

How the results depend on the processing

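Members called in PBS against wild type numbered 8 in every fit run except library set 3, where S100a9 made 9, and their number in RGLS4326 against wild type moved between 6 and 8 apart from library set 2 (1 member, 372 genes) and set 3 (2471 genes). RGLS4326 against PBS was less stable. Members called were 0 instead of 1 with median-of-ratios size factors, with DESeq2, with wild-type mice 3 and 4 as 1, and within each of the 3 library sets, and 3 with no size threshold. Genes called were 210 when the fit held the compared groups alone and 0 within each set (280, 2981 and 3045 at an unadjusted p under 0.05, 5595 in all mice), and with no size threshold 2402, 11281 and 9861 genes passed in RGLS4326 against PBS, PBS against wild type and RGLS4326 against wild type. Leaving out 1 mouse gave 78 to 574 genes and 0 to 3 members in RGLS4326 against PBS, 6235 to 6610 genes and 8 members in PBS against wild type, and 4563 to 5129 genes and 6 to 8 members in RGLS4326 against wild type. The treatment count left 1.5 times the value of 327 without PBS mouse 2 (151), 3 (136), 4 (559), 5 (108), 9 (110) or 10 (78) and RGLS4326 mouse 2 (574), 3 (206), 6 (176), 8 (146), 9 (145), 10 (169) or 13 (159). No member was called in 16 of these 31 fits, among them all 5 without a wild-type mouse, Anxa2 alone in 12, Anxa2 with S100a6 without PBS mouse 4, Anxa1 with Anxa2 without PBS mouse 12, and these 3 without RGLS4326 mouse 2. The causes were not tested.

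The replicate block, which pairs mice by number, left 43 genes and 0 members in RGLS4326 against PBS. The numbers did not pair the mice (correlation of deviations −0.470 to 0.506, mean −0.085, over 12 pairs, with 2 mice most like their own number), so the block is given here only. Signs turned for Anxa3 in set 1 (0.0005), S100a4 in set 3 (0.0714) and Anxa13 in set 1 (−0.1336) in RGLS4326 against PBS, and for S100a14 in set 2 (−0.0025) in PBS against wild type. S100a9, whose change did not pass, turned sign in set 1 (0.0412 against PBS and 0.5384 against wild type), set 2 (−0.7793, PBS against wild type), set 3 (1.1232, RGLS4326 against wild type) and with the replicate block (−0.1068), and over single left-out mice it ran from −0.1996 to 0.5318 in PBS against wild type and from −0.4377 to 0.2940 in RGLS4326 against wild type. Among pairs, r of S100a8 with S100a9 in RGLS4326 mice was −0.124 without the 2 farthest mice and Spearman's rho of Anxa1 with S100a11 in PBS mice was 0.573, past no threshold. S100a8 failed the filter, and so could not be fitted, in library set 1. The same happened in both RGLS4326 comparisons when the fit held the compared groups alone. The alternatives for family and partner genes were chosen after seeing the data. S100a8, S100a9, Fpr1 and Anxa8 had few counts per mouse, so their values are imprecise, and the part of depth in this was not tested.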
